A study of Homo sapiens with 2 samples.

Results

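The peroxide defence genes described here are 10 human genes, taken by their symbols from 58302 genes listed in the deposited tables. They encode superoxide dismutases (SOD1, SOD2), catalase (CAT), peroxiredoxins (PRDX3, PRDX5), the mitochondrial thioredoxin system (TXN2, TXNRD2), glutathione peroxidases (GPX1, GPX4) and the proton-pumping transhydrogenase NNT. All 10 symbols were found, each in 1 row, and all 10 had a mean of at least 1 CPM (reads of a gene scaled to the size of its library), so no member was lost to the filter on low counts. RNA-seq was done on total RNA of A549, an epithelial cell line derived from a human lung adenocarcinoma, grown in F12K medium with serum. The tested library came from cells with PGC-1alpha overexpression and the other from control cells. No construct, clone or time after gene transfer is given, and the control is described only as such. With 1 library per group the edgeR quasi-likelihood test could not be fitted, so no difference has a replicate check and no p-value is given. Values compare these 2 libraries only.

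Superoxide, a by-product of the respiratory chain, is turned into hydrogen peroxide by superoxide dismutases, SOD2 working in the mitochondrial matrix and SOD1 mainly in the cytosol. Hydrogen peroxide is then removed by catalase in peroxisomes, by peroxiredoxins that take electrons from thioredoxin, and by glutathione peroxidases. Thioredoxin reductase and glutathione reductase draw on NADPH, which NNT makes in mitochondria from NADH and the proton gradient. PGC-1α is a transcriptional coactivator known for raising mitochondrial genes, and in mouse cells it is known to raise genes that remove reactive oxygen species.

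The overexpressed gene, PPARGC1A, had 4654 counts in the PGC-1alpha library, against 5 in the control. Library totals were 24334768 counts for PGC-1alpha overexpression and 27125084 for the control. Over 5 epithelial markers the sums were 5249 CPM in the PGC-1alpha library and 5360 CPM in the control. Nearly all of this came from KRT8, at 3899 and 3868 CPM, and KRT18, at 1291 and 1375 CPM, PGC-1alpha library first. In the same order KRT19 had 29.8 and 65.5 CPM, CDH1 24.8 and 48.0 CPM, and EPCAM only 4.88 and 3.26 CPM. The 5 alveolar type II markers summed to 35.7 CPM in the PGC-1alpha library and 34.3 CPM in the control, nearly all from ABCA3, at 35.4 and 34.1 CPM, while SFTPA1 and NKX2-1 had no counts in either library. Sums over 5 markers each were 3.14 and 2.93 CPM for fibroblasts, 3.64 and 6.09 CPM for immune cells, and 0.165 and 0.147 CPM for endothelial cells, PGC-1alpha library first. CD3E, CDH5 and KDR were at 0 in both. Within the marker lists KRT19 and CDH1 of epithelium, at -1.13 and -0.95, and CD14 of the immune list, with 82 counts in the PGC-1alpha library and 164 in the control, were called lower. Their part in the results was not tested.

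Among the 10 genes, NNT and SOD2 were higher in the PGC-1alpha library, at 1.92 and 1.76 times their control levels. Normalised counts of the other 8 differed by less than 1.5-fold, and GPX4 was the only one below its control level. In bulk RNA, fewer cells expressing a gene and less RNA per cell cannot be told apart. A call required a 1.5-fold or larger difference in normalised counts together with a 95% counting interval of the ratio that excluded 1. By this rule 2 of 10 were higher and 0 lower. Of all 14154 measured genes, 5.3% were called higher and 3.92% lower, and among the 6237 genes with at least 30 CPM, the range in which every member lies, 2.39% and 1.39%; that range was chosen after seeing the data. The median log2 ratio of the members was 0.19, against -0.005 for all measured genes. At a 2-fold threshold none of the 10 was called, and 1.75% of measured genes were called higher and 1.16% lower. Together the members took 0.182% of the counts in the PGC-1alpha library (exact binomial 95% interval 0.180 to 0.184) and 0.151% in the control (0.150 to 0.153). All intervals cover counting error only, not differences between cultures.

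**Figure D1:**
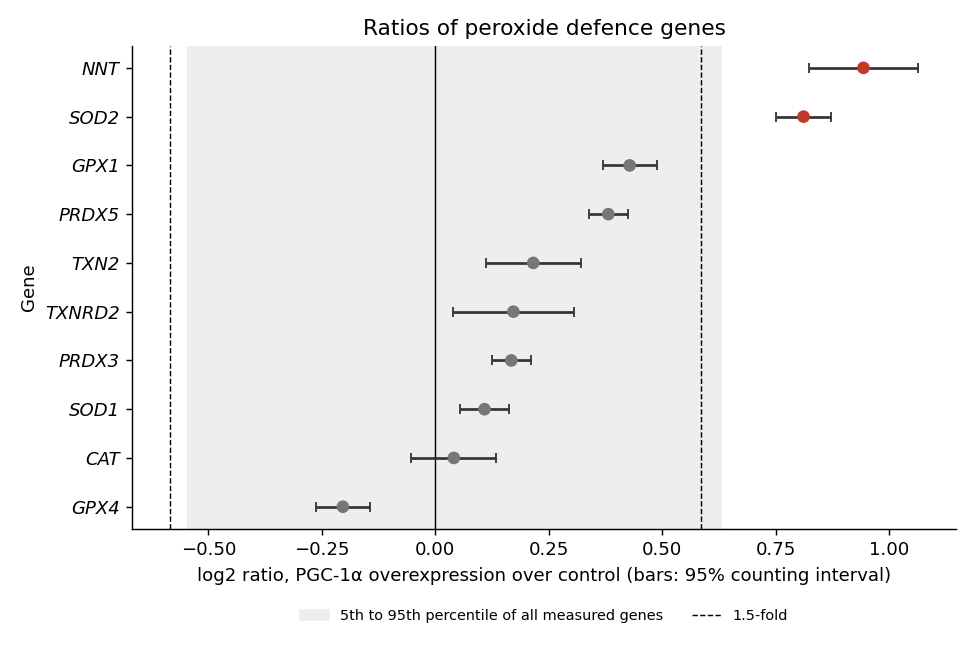
Log2 ratios of PGC-1alpha overexpression over control (x axis) for the 10 genes (y axis), with 95% counting intervals, from 1 library each. Red points mark NNT at 0.94 and SOD2 at 0.81, the genes past the dashed 1.5-fold line; the grey band spans the 5th to 95th percentile of all measured genes, from -0.54 to 0.63.

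SOD2, the manganese superoxide dismutase of the mitochondrial matrix (ENSG00000112096, chromosome 6, 159669057 to 159762529, minus strand, as the tables give it), had 5711 counts in the PGC-1alpha library and 3666 in the control. These were 236 CPM in the PGC-1alpha library and 134 CPM in the control, a log2 ratio of 0.81 (0.75 to 0.87). Of 14154 measured genes 421, or 2.97%, had a higher ratio. Its listed span also covers WTAP, a component of the RNA methylation machinery, and part of ACAT2, a thiolase gene, both on the opposite strand. WTAP had 42.9 CPM with PGC-1alpha overexpression and 47.6 CPM in the control, and ACAT2 had 40.7 CPM and 47.7 CPM, so both lay below their control levels while SOD2 lay above. No strand setting is given, so reads of overlapping genes cannot be told apart by strand.

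SOD1, the copper-zinc enzyme (ENSG00000142168, chromosome 21, 31659622 to 31668931, plus strand), had 5294 counts in the PGC-1alpha library and 5533 in the control, or 219 CPM and 203 CPM. Its log2 ratio was 0.11 (0.05 to 0.16), under 1.5-fold. Per library, SOD2 had 1.08 times the counts of SOD1 with PGC-1alpha overexpression and 0.663 times in the control. The ratio of SOD2 to SOD1 was therefore 1.63 times as high in the PGC-1alpha library, a log2 difference of 0.70 (0.62 to 0.78) that does not depend on how the libraries are scaled.

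NNT, which couples the proton gradient of the inner mitochondrial membrane to NADPH (ENSG00000112992, chromosome 5, 43602692 to 43707405, plus strand), had 1540 counts in the PGC-1alpha library, against 902 in the control. Its level was 63.6 CPM with PGC-1alpha overexpression and 33.1 CPM in the control, a log2 ratio of 0.94 (0.82 to 1.06), the highest of the 10 genes. Of the measured genes 288, or 2.03%, had a higher ratio. NNT-AS1, an antisense gene whose exons share 217 bases with those of NNT, was also called higher, with 218 counts in the PGC-1alpha library and 150 in the control and a log2 ratio of 0.71 (0.40 to 1.02). The ratio of NNT to NNT-AS1 differed between libraries by a log2 value of 0.23 (-0.09 to 0.55), within counting error. NNT and SOD2 did not differ in their ratios beyond counting error either, with a log2 difference of 0.13 and an interval from -0.00061 to 0.26.

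Sequence upstream of SOD2 and NNT is shown because these are the members called higher. It comes from RefSeq promoter windows on GRCh38.p14, read 5′ to 3′ on the gene's strand, and capitals mark matches to the searched motifs, which in both stretches are GC boxes (GGGCGG or its complement CCGCCC), letters known to be bound by SP1. For SOD2 the window nearest the main start was cut back by 87 bases to lie outside the annotated exons of SOD2. Exons of other genes were not checked, and the NNT stretch lies within the listed span of NNT-AS1.
SOD2, chr6:159693329-159693491, minus strand: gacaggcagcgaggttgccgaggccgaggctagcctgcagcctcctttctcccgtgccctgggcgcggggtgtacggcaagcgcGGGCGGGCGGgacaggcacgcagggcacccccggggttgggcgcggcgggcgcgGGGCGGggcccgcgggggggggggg
NNT, chr5:43602425-43602674, plus strand: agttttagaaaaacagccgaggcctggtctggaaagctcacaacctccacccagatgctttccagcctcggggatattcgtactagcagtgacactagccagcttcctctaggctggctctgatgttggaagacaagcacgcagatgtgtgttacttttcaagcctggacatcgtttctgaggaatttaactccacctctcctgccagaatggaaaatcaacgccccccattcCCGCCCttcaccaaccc

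The 250 bases before a RefSeq start could be searched for 8 of the 10 genes, on both strands, using the window nearest the start of a principal GENCODE transcript. SOD1 and TXN2 had no entry. The full SOD2 window was 80.8% G and C and held 6 GC boxes, overlapping ones counted separately. Of these, 3 lay in the printed stretch, and the others reached into the bases cut from it. The NNT window was 51.6% G and C and held 1. For NNT the choice of window was close, at 48 bases from a principal start against 53 for a second window. That second window was 70% G and C and held 2 GC boxes and 1 CACGTG, so the values for NNT depend on the window. All 8 nearest windows held a GC box, which 42.6% of 35116 RefSeq windows of this length also held. The motif AAGGTCA, bound by the estrogen-related receptors that PGC-1α coactivates, was in none of the 8, against 3.44% of all windows, and TGACNNNGC, the core of the antioxidant response element, was also in none, against 10.9%. The palindromic motif of NRF1 was found in the window of PRDX5 alone, against 5.07% of all windows. Among the nearest windows CCGGAAG, an ETS motif, was in those of PRDX5 and GPX1 (8.52% of all windows). CACGTG was in those of PRDX3 and GPX1 (6.34%), and CCAAT in those of CAT and GPX4 (32.0%). The GPX1 window belongs to a start 247 bases from the principal one and lies almost wholly within the listed gene. Its matches are therefore not upstream of the gene. Windows of other members also reached into their listed genes, among them that of PRDX5 with its NRF1 match. These matches are letters in a short window and say nothing of whether a factor binds.

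Catalase, which splits hydrogen peroxide in peroxisomes (CAT, ENSG00000121691, chromosome 11, 34438925 to 34472062, plus strand), had 1785 counts in the PGC-1alpha library and 1955 in the control. Its levels of 73.7 CPM and 71.7 CPM gave a log2 ratio of 0.04 (-0.05 to 0.13), the only interval among the 10 that included 0. Genes of peroxisome assembly and peroxisomal fatty acid oxidation were likewise under 1.5-fold. None of 26 was called, against 5.3% called higher and 3.92% called lower among all measured genes, and their median log2 ratio was 0.04. The most abundant of them were HSD17B4, an enzyme of peroxisomal β-oxidation, at 0.06, PEX5, the import receptor that brings catalase into peroxisomes, at 0.16, and the transporter gene ABCD3 at -0.07.

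No gene of the mitochondrial peroxiredoxin chain was called. PRDX3, the peroxiredoxin of the matrix (ENSG00000165672, chromosome 10, 119167703 to 119178833, minus strand), had 8690 counts in the PGC-1alpha library and 8719 in the control, or 359 CPM and 319.7 CPM, a log2 ratio of 0.17 (0.12 to 0.21). TXN2, the thioredoxin that reduces it (ENSG00000100348, chromosome 22, 36467036 to 36482030, minus strand), had 1509 counts and 1464 counts in the same order, a log2 ratio of 0.22 (0.11 to 0.32). TXNRD2, the reductase of TXN2 (ENSG00000184470, chromosome 22, 19875517 to 19941992, minus strand), had 932 counts in each library, which after scaling gave a log2 ratio of 0.17 (0.04 to 0.30). The ratio of TXN2 to PRDX3 differed between libraries by 0.05 on the log2 scale (-0.06 to 0.16) and that of TXNRD2 to TXN2 by -0.04 (-0.21 to 0.12), both within counting error.

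PRDX5, a peroxiredoxin found in mitochondria, peroxisomes and cytosol (ENSG00000126432, chromosome 11, 64318088 to 64321811, plus strand), had 9662 counts in the PGC-1alpha library and 8358 in the control. At 399 CPM and 306 CPM its log2 ratio was 0.38 (0.34 to 0.42), or 1.30-fold. Its ratio exceeded that of PRDX3 by 0.21 (0.15 to 0.27). Only 11.6% of measured genes had a higher ratio than PRDX5, although it was not called.

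The glutathione peroxidases went apart. GPX1, which reduces hydrogen peroxide in cytosol and mitochondria (ENSG00000233276, chromosome 3, 49357176 to 49358600, minus strand), had 5087 counts in the PGC-1alpha library and 4259 in the control, or 210.2 CPM and 156 CPM, a log2 ratio of 0.43 (0.37 to 0.49). GPX4, which reduces lipid hydroperoxides in membranes (ENSG00000167468, chromosome 19, 1103926 to 1106791, plus strand), had 4079 counts and 5293 counts in that order, or 169 CPM and 194 CPM, a log2 ratio of -0.20 (-0.26 to -0.14). Neither passed 1.5-fold alone. The count of GPX1 was 1.25 times that of GPX4 with PGC-1alpha overexpression and 0.805 times in the control, a log2 difference of 0.63 (0.55 to 0.72). Their order by raw counts was thus opposite in the 2 libraries, but counts are not scaled to gene length. Per deposited gene length GPX1 lay above GPX4 in both, at 1.77 times with PGC-1alpha overexpression and 1.14 times in the control. Per median length of their protein-coding transcripts the order was again opposite.

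GPX1, GPX4 and TXNRD2 are selenoproteins, in which a TGA codon is read as selenocysteine instead of stop. The codon is shown in capitals within the coding sequence of the principal GENCODE transcript on GRCh38, because 3 of the 10 members depend on it for their active site. It is codon 49 of 203 in GPX1, codon 73 of 197 in GPX4 and codon 523 of 524 in TXNRD2, counted from the start codon without the stop.
GPX1, chr3:49358132-49358134, minus strand: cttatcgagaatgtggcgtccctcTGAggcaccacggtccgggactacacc
GPX4, chr19:1105403-1105405, plus strand: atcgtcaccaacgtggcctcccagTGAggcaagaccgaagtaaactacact
TXNRD2, chr22:19877111-19877113, minus strand: ctggaccccacggtgacaggctgcTGAggg
These 3 members gave log2 ratios of 0.43, -0.20 and 0.17, so they had no common direction. Of 17 other measured selenoproteins, 1 was lower, DIO2, a thyroid hormone deiodinase gene, with 1195 counts in the PGC-1alpha library and 2698 in the control and a log2 ratio of -1.0 (-1.10 to -0.90), and the median was -0.05. Of 8 genes of selenocysteine insertion and selenium recycling, 1 was higher, SCLY, the selenocysteine lyase gene, with 156 counts in the PGC-1alpha library and 106 in the control and a log2 ratio of 0.73 (0.36 to 1.10). SCLY was not called when FPKM with a pseudocount of 0.1 or 1 was used. Of all measured genes, 5.3% were called higher and 3.92% lower.

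Levels were compared between genes per length, in FPKM as deposited, a value scaled to gene length and library size. PRDX5 was the most abundant of the 10 in both libraries, at 444 FPKM with PGC-1alpha overexpression and 346 FPKM in the control, followed by GPX1 at 147 and 110.3 FPKM. In the PGC-1alpha library SOD1 at 108 FPKM and PRDX3 at 104 FPKM came next with overlapping counting intervals, then GPX4 at 82.9, TXN2 at 30.2, CAT at 21.9, SOD2 at 12.3, NNT at 7.67 and TXNRD2 at 4.57 FPKM, each apart from its neighbour. In the control SOD1, GPX4 and PRDX3 followed GPX1, at 101, 96.8 and 94.2 FPKM, with intervals that overlapped between neighbours. They were followed by TXN2 at 26.4, CAT at 21.6 and SOD2 at 7.13 FPKM, and by TXNRD2 and NNT at 4.11 and 4.04 FPKM, whose intervals overlapped. By deposited length NNT was thus level with TXNRD2 in the control and above it in the PGC-1alpha library, an order that did not hold per transcript length.

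This order depended on the length used, most of all for SOD2. The tables give SOD2 18985 bases, whereas the median of its protein-coding transcripts in the GENCODE 29 basic set was 990.5 bases. Per that length, an alternative chosen after seeing the data, SOD2 stood at 237 FPKM in the PGC-1alpha library and 137 FPKM in the control, the third and the sixth of the 10 in place of the eighth in both. PRDX5 stayed highest, at 665 FPKM and 518 FPKM, and NNT was lowest in both libraries, at 14.7 FPKM and 7.73 FPKM, below TXNRD2 at 18.9 FPKM and 17.0 FPKM. GPX1 no longer followed PRDX5: at 205 FPKM in the PGC-1alpha library and 155 FPKM in the control it was the fifth in both, and GPX4, at 193 FPKM and 226 FPKM, was the sixth with PGC-1alpha overexpression and the second in the control. Some neighbours were close: SOD1 stood at 237 FPKM beside SOD2 in the PGC-1alpha library and at 223 FPKM beside GPX4 in the control. Counting intervals were not computed on this scale, so such ranks are not settled. Ratios between libraries do not change with the length used.

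**Figure D2:**
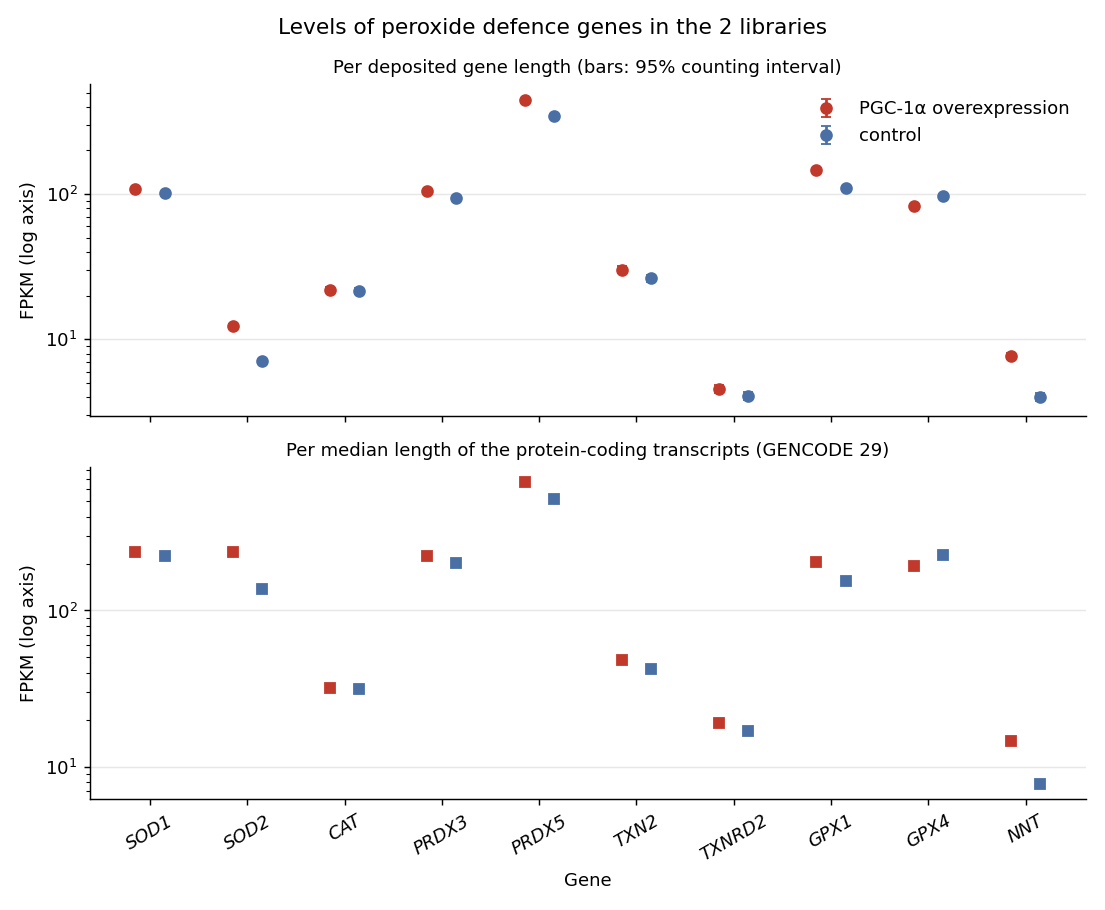
Level of each of the 10 genes in FPKM on a log axis, PGC-1alpha overexpression (red) left of control (blue), 1 library each; bars for the 95% counting interval in the upper panel are mostly smaller than the points. In the PGC-1alpha library SOD2 stands at 12.3 FPKM per deposited length (upper panel) and at 237 FPKM per median transcript length (lower panel), while the gap between the libraries stays the same.

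Measured relatives of the members did not pass 1.5-fold. Of all measured genes only 5.3% were called higher and 3.92% lower, so a short list can hold no called gene. None of 6 measured genes of the same families was called, and their median log2 ratio was -0.07. PRDX1, the main cytosolic peroxiredoxin, had 887 CPM in the PGC-1alpha library and 1005.9 CPM in the control, a log2 ratio of -0.18, GPX2 stood at 0.20 and PRDX6 at -0.10. PRDX2 was barely detected, with 16 counts in the PGC-1alpha library and 12 in the control. None of 12 other genes of thioredoxins, glutaredoxins and methionine sulfoxide reductases was called, with a median of -0.06. The cytosolic thioredoxin TXN stood at -0.14, its reductase TXNRD1 at -0.31 with 1449.6 CPM in the PGC-1alpha library and 1791 CPM in the control, and the sulfiredoxin gene SRXN1 at -0.18.

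Measured genes supplying reducing power and cofactors were also under 1.5-fold, where 5.3% of all measured genes were called higher and 3.92% lower. For glutathione synthesis, recycling and mitochondrial import, none of 10 was called and the median log2 ratio was -0.10. The amino acid transporter subunit SLC3A2 stood at -0.10, glutathione reductase GSR at -0.15 and SLC25A39, which carries glutathione into mitochondria, at 0.41. For NADPH supply, none of 14 was called, with a median of 0.14. The pentose phosphate enzyme gene PGD stood at -0.34 and IDH1 at -0.06, whereas NNT stood at 0.94. Among 8 genes of copper and manganese supply, the median was 0.11 with none called, and SLC25A3, which carries phosphate and copper into mitochondria, stood at 0.44, SLC39A14 at 0.10 and COX17 at -0.05. Among 10 genes of lipid peroxidation and iron handling, the median was 0.07 with none called, the ferritin genes FTL and FTH1 standing at -0.37 and -0.15 and TFRC at 0.10.

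**Figure D3:**
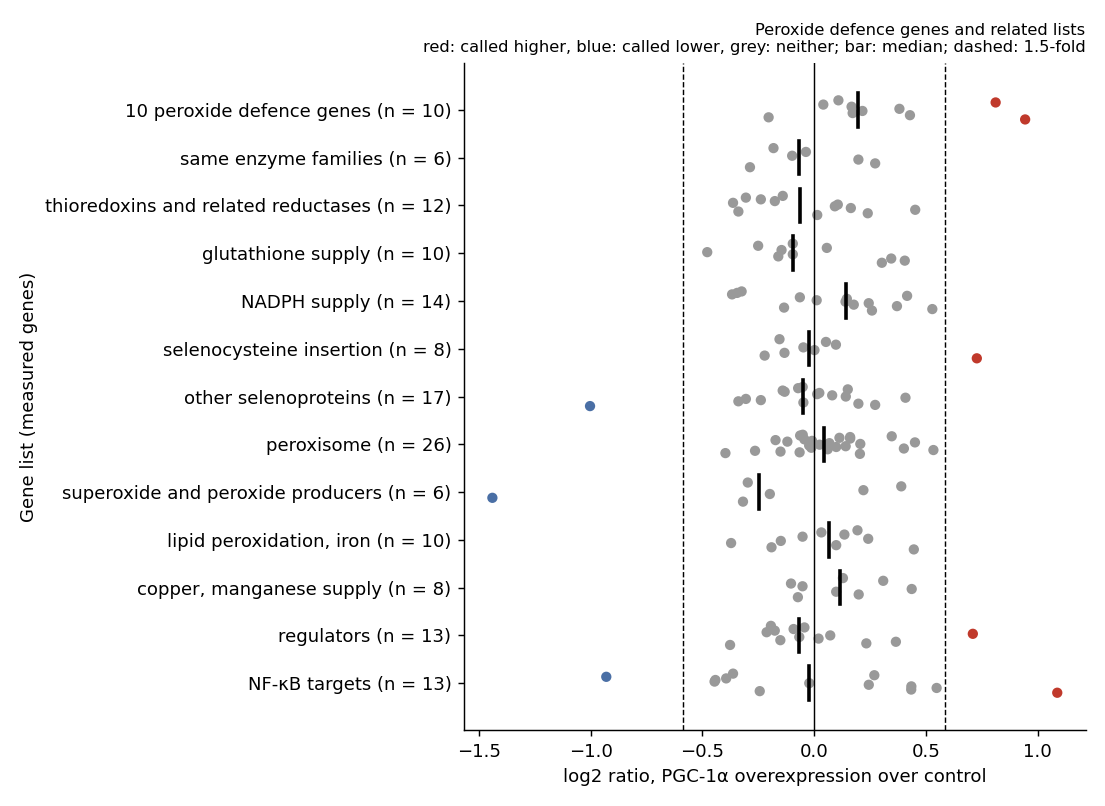
Log2 ratios of PGC-1alpha overexpression over control (x axis) for the measured genes of the 10 peroxide defence genes and 12 related lists (y axis), 1 library each, with list medians as black bars. The median of the peroxide defence genes lies at 0.19 and those of the other lists between -0.25 and 0.14 for genes that passed the filter of 1 CPM; red and blue points are the genes past the dashed 1.5-fold lines.

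Enzymes that make superoxide or peroxide were mostly scarce, with 6 of 16 measured and a median of -0.25 that turned to 0.08 without the filter on low counts. AOX1, the aldehyde oxidase gene, was lower, with 72 counts in the PGC-1alpha library and 221 in the control and a log2 ratio of -1.44 (-1.85 to -1.06). Of 13 regulators of antioxidant genes, ESRRA, the estrogen-related receptor α gene, was higher at 0.71 (0.63 to 0.79) and the others were not called, with a list median of -0.07. Because SOD2 is also known as a target of NF-κB, 13 measured genes of that pathway are set beside it. IL32 was higher at 1.09 (0.78 to 1.40), CCL2 was lower at -0.93 (-1.14 to -0.73), 11 were neither and the median was -0.02. That list went both ways, with 6 of its 13 measured genes above 0. Over all 12 lists, 3 of 137 measured genes, each counted once, were called higher and 3 lower. Of all 14154 measured genes, 5.3% were called higher and 3.92% lower. At such shares a short list can hold no called gene.

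SOD2, PRDX3, TXN2 and TXNRD2 have a counterpart of the same enzyme class outside mitochondria. With them, 12 pairs of this kind were put together after values had been seen, and the remaining pairs hold none of the 10 genes. In 11 pairs both genes were measured, and in all 11 the mitochondrial gene had the higher log2 ratio. The counting interval of the difference lay above 0 in 10 pairs and included 0 in 1, GLRX5 with GLRX3, at 0.07 (-0.03 to 0.18). TXN2 exceeded TXN by 0.36 (0.25 to 0.47), PRDX3 exceeded PRDX1 by 0.35 (0.30 to 0.40) and TXNRD2 exceeded TXNRD1 by 0.48 (0.35 to 0.61), although none of these 6 genes passed 1.5-fold. Among the NADPH enzymes, ME3 exceeded ME1 by 0.78 (0.59 to 0.98), NADK2 exceeded NADK by 0.66 (0.46 to 0.87) and IDH2 exceeded IDH1 by 0.21 (0.07 to 0.35). The median log2 ratio was 0.22 for the mitochondrial genes and -0.14 for their counterparts, of which 8 lay below 0 and 3 above. In ALDH1L2 and ALDH1L1, the pair left out, ALDH1L1 had 6 counts in the PGC-1alpha library and 3 in the control, and the difference ran the other way, at -0.80, with a wide interval from -2.81 to 1.21.

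**Figure D4:**
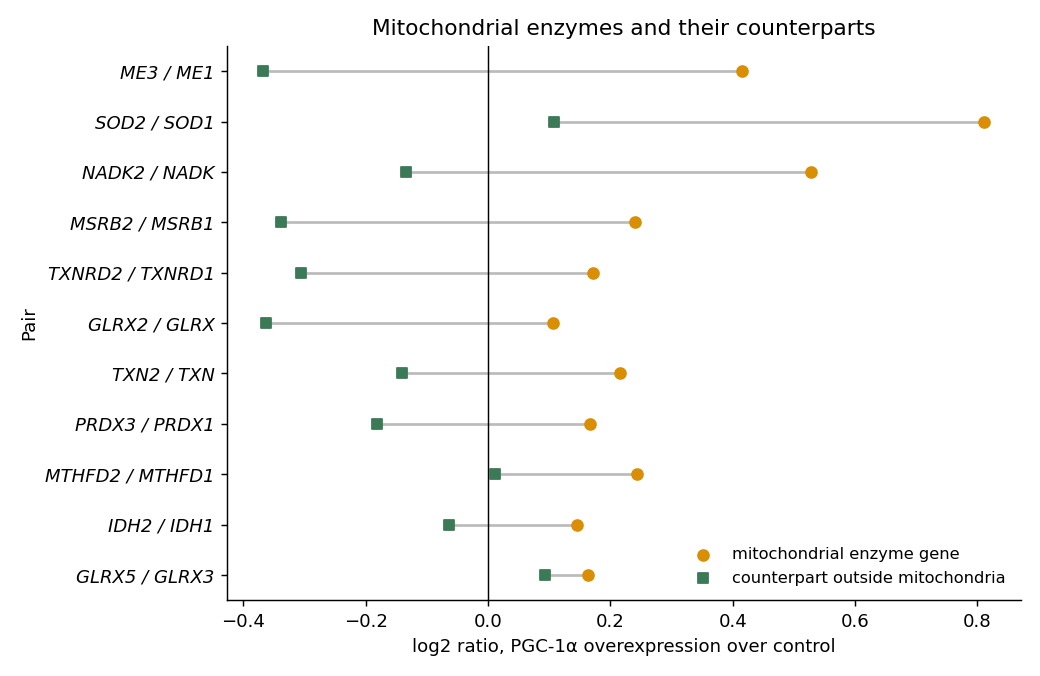
Log2 ratios of PGC-1alpha overexpression over control (x axis) for 11 pairs (y axis) of a mitochondrial enzyme gene (circles) and its counterpart outside mitochondria (squares), 1 library each, chosen after values had been seen. The circle lies right of the square in all 11 pairs, by 0.07 for GLRX5 with GLRX3 up to 0.78 for ME3 with ME1.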

How the data were processed

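The authors deposited a raw count and an FPKM value for each gene and library, per the file headers. Per the submitters' processing notes the tools were TopHat2 2.0.9, Bowtie2 2.0.6, Cuffdiff 2.1.1 and Cufflinks 2.1.1, with no role stated. What counted the reads, with which build, annotation and strand setting, was not given in the sources used here. Gene coordinates equalled those of GENCODE 29 on GRCh38 for 97.6% of 58039 shared identifiers and for 8 of the 10 members, not for SOD2 and GPX1. The deposited FPKM values were the counts over gene length and a library size, for every gene above 0 within a tolerance of 1e-06.

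Counts were scaled with TMM (edgeR 4.0.16, R 4.3.3), factors 0.995 for PGC-1alpha overexpression and 1.01 for the control. Log2 ratios used counts plus 0.5; 95% intervals were Clopper-Pearson intervals of the split of each gene's counts, Poisson for levels and normal on the log scale for ratios of genes, from reads without molecular identifiers. Measured genes had a mean of at least 1 CPM. A count of 3, the limit that a count of 0 allows, was 0.124 CPM in the PGC-1alpha library and 0.110 CPM in the control. DESeq2 1.42.0 gave alternative size factors. The members and lists were chosen with earlier results of these data known. All members are named, and in each list the called genes or, with none, the 3 most abundant. Some genes that this rule would name are not reported here.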

Additional observations from a re-analysis of the deposited data

How the results depend on the processing

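The log2 ratios and calls of the 10 genes were recomputed with DESeq2 size factors, library totals, upper-quartile factors, the mitochondrial genome left out, no filter, at least 5 CPM, FPKM with pseudocounts of 0.1 and 1, and pseudogene copies summed. Under all of these NNT and SOD2 were the 2 members called higher and no member was lower. With an FPKM pseudocount of 1, which lowers the ratios of genes with low FPKM, the log2 ratios were 0.72 for SOD2 and 0.78 for NNT. With a 2-fold threshold 0 members were called higher and 0 lower, while in the other lists 1 gene was higher and 2 were lower. Without a filter 5 genes of those lists were higher, the additional ones being TXNIP, with 7 counts in the PGC-1alpha library and 1 in the control, and MAOB, with 18 and 2. The share of all tested genes called higher was 5.3% as reported, 3.44% with at least 5 CPM, 2.23% without a filter and 1.94% with an FPKM pseudocount of 1. List medians moved with the filter: for the producers of superoxide and peroxide the median was 0.08 without a filter, -0.87 with at least 5 CPM and -0.10 with an FPKM pseudocount of 1, for the same enzyme families 0.17 without a filter, and for NF-κB targets -0.13 with at least 5 CPM. Without a filter, genes with no counts in either library enter the medians at 0.17, a value set by the scaling of the 2 libraries alone. Apart from the changed threshold, which leaves ratios as they are, GPX4 stayed between -0.22 and -0.20 and CAT between 0.02 and 0.04. No paired analysis was possible because each group has 1 library. With 1 library per group, differences between cultures cannot be told apart from differences between conditions.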
